A study of Homo sapiens with 2 samples.

Results

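Peaks of the RNA-binding protein IGF2BP3 were examined on 8 genes of the insulin-like growth factor (IGF) axis, namely IGF2, H19, IGF1R, IGF2R, INSR, IRS1, IRS2 and IGFBP3. A peak belonged to a gene if it shared at least 1 bp with the gene's span in the GENCODE 44 annotation of hg38. In all, 75 peaks met this rule, 39 of the 21142 peaks of replicate 1 and 36 of the 20799 peaks of replicate 2. The peaks came from LACE-seq, in which RNA bound to a protein is crosslinked with UV light, pulled down with an antibody and read out by amplifying the ends of the cDNA. Both samples were of OE-19, an established cell line that grew from an esophagogastric junction adenocarcinoma, and formed a single group, for which the labels name neither a treatment nor a genetic change. No input or control antibody list was analysed here, so each peak stood against its own surroundings only. Each peak was described by its fold enrichment, the height at its summit over the local background as the peak caller estimated it. It was also described by its −log10 q, where q is the caller's p-value adjusted for multiple testing, and by its pileup, the number of reads stacked at the summit. The total read number of each library is not known, and a peak shows RNA recovered with IGF2BP3, not how abundant that RNA was in the cell. Of 6 markers of epithelial adenocarcinoma, such as EPCAM, KRT8 and CDH1, 6 had peaks in both lists, and 0 of 5 markers of other cell types did. Over all protein-coding genes the share was 34.7%. Of the markers of other cell types, PTPRC had 1 peak in replicate 1 alone and COL1A1 had 1 in replicate 2 alone.

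IGF2 is a secreted growth factor that signals through the receptor tyrosine kinase IGF1R and through the insulin receptor INSR, while IGF2R binds IGF2 without a kinase domain and carries it to the lysosome. The activated kinases phosphorylate the docking proteins IRS1 and IRS2, which recruit the PI3K and MAPK cascades, and IGFBP3 holds the growth factors in the extracellular fluid. IGF2BP3 belongs to a family named after the binding of its members to the IGF2 mRNA, and H19 is a long non-coding RNA of the same imprinted region, expressed from the maternal chromosome while IGF2 is expressed from the paternal one.

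IGF2BP3 peaks lay on all 8 genes, but they were spread unevenly. The receptor kinase genes INSR and IGF1R carried the most, with 12 and 12 peaks on INSR and 10 and 7 on IGF1R in replicates 1 and 2. IRS1 had 6 and 4, IRS2 had 5 and 5, and IGF2R had 3 and 3. The ligand gene IGF2 had 1 and 2 peaks, H19 had 2 and 1, and IGFBP3 had 0 and 2. Thus 7 of the 8 genes had a peak in both lists, IGFBP3 being the exception. Of the 7 protein-coding genes 6 had a peak in both lists, as did 34.7% of all 20046 protein-coding genes, and H19 did, as did 7.56% of 18866 lncRNA genes. The same 6 protein-coding genes had a peak of 1 list that overlapped a peak of the other, as did 30.5% of all protein-coding genes. Per gene, 56 of the 20046 protein-coding genes (0.279%) had at least as many peaks as INSR over both lists, 211 (1.05%) as many as IGF1R, and 2410 (12%) as many as IGF2R. For IGF2 the number was 5521 genes (27.5%). These ranks take no account of gene length or of RNA level. Per kb of mature transcript INSR was still highest, with 1.27 peaks in each replicate. All peaks of the gene span were counted for this, also those on INSR that touched no exon. IGF1R had 0.695 ± 0.173 (SD, n = 2), H19 had 0.626 ± 0.295 and IRS2 had 0.613 in each replicate. IGF1R was second in neither replicate. In replicate 1 it had 0.817 and H19 had 0.835, and in replicate 2 it had 0.572 and IGFBP3 had 0.765. IGF2R, with the longest transcript of the 8, had 0.213 peaks per kb in each replicate, and IGF2 had 0.269 ± 0.127 (SD, n = 2).

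**Figure D1:**
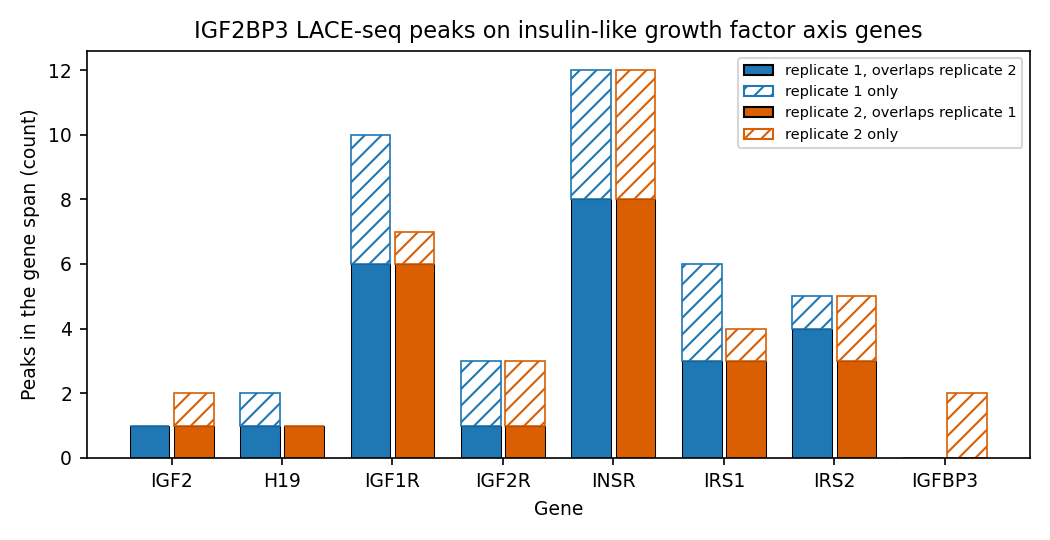
Number of IGF2BP3 LACE-seq peaks (y axis, count) on each gene of the IGF axis (x axis), with replicate 1 in blue and replicate 2 in orange. Solid bars are peaks that overlap a peak of the other replicate by at least 1 bp and hatched bars are those that do not; INSR has 12 peaks in each replicate, 8 of them overlapping, and IGFBP3 has 2 in replicate 2 only.

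Of the 39 peaks of replicate 1, 24 (61.5%, 95% Wilson interval 45.9 to 75.1) overlapped a peak of replicate 2, beside 60.1% of all peaks in that list. Of the 36 peaks of replicate 2, 23 (63.9%, 47.6 to 77.5) overlapped a peak of replicate 1, beside 61.2% of all. The IGF axis peaks therefore recurred about as often as peaks in general, with intervals that cover counting error only. All 75 summits lay in sequence that was unique in the genome, judged by the 31 bases around each summit.

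Along the transcripts the peaks fell on coding exons, on 3′ UTRs and at exon borders. In replicate 1, 17 summits (43.6%) were in coding sequence, 11 (28.2%) in a 3′ UTR, 1 (2.56%) in a 5′ UTR, 2 in the exons of H19 and 8 (20.5%) in introns. In replicate 2 the numbers were 11 (30.6%), 8 (22.2%), 6 (16.7%), 1 and 10 (27.8%). Over all peaks on genes the shares were 30.5% and 31.6% for coding sequence and 23.4% and 19.3% for 3′ UTRs, which lie within the Wilson intervals of the IGF axis shares in both replicates. Of the intronic summits, 6 of 8 and 9 of 10 were less than 150 nt upstream of an exon, and each of those peaks reached into that exon. Over all intronic summits on protein-coding genes the shares within this distance were 73.7% and 74.8%, so this placement was common to peaks in general. The other 3, all on INSR, touched no annotated exon. Of the exonic summits on the 7 protein-coding genes, 2 of 29 (6.90%, Wilson interval 1.91 to 22) in replicate 1 were within 200 nt of the last coding base, both on IRS1. In replicate 2, 0 of 25 were, with an interval up to 13.3%. Over all protein-coding genes the shares were 19% and 17.4%, inside the interval of replicate 1 and above that of replicate 2, and summits on the same gene are not independent.

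**Figure D2:**
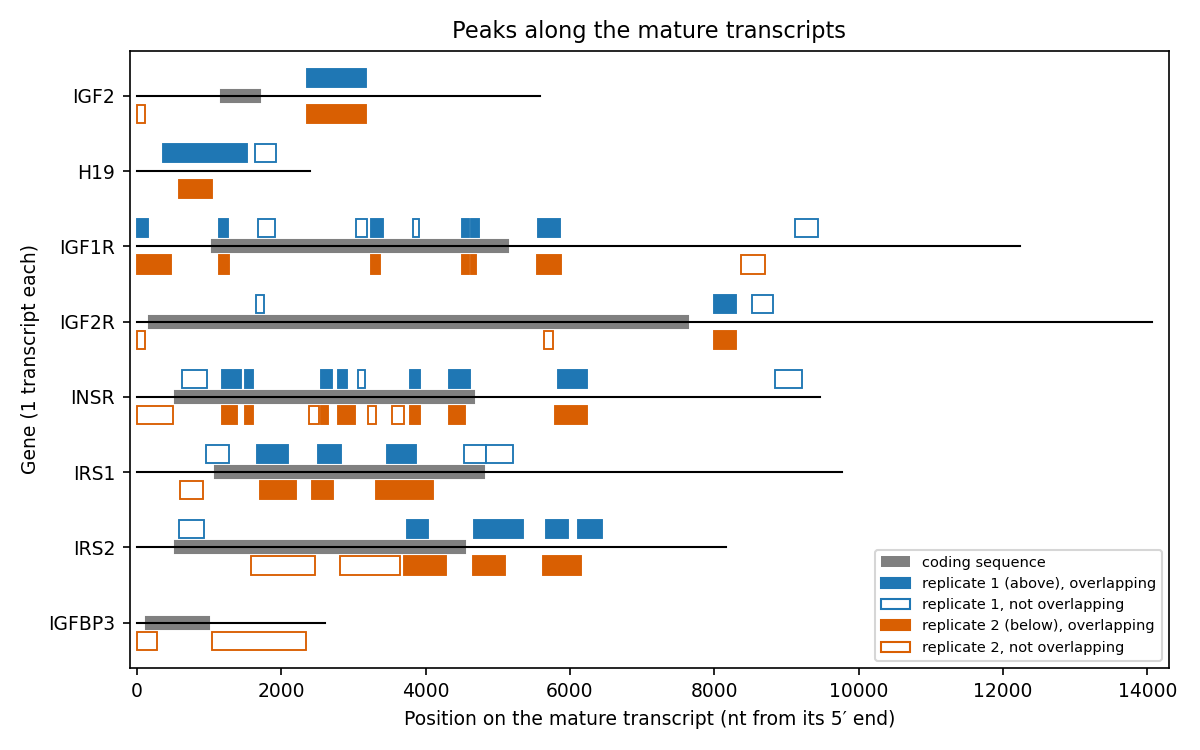
Peaks drawn on 1 mature transcript per gene (x axis, nt from the 5′ end), with coding sequence as a grey box, replicate 1 above each line in blue and replicate 2 below in orange. Filled boxes overlap a peak of the other replicate and open boxes do not; the 3 INSR peaks that touch no exon are not drawn, and the 3 overlapping pairs of IRS1 lie in its coding sequence while those of IGF2 and IGF2R lie in the 3′ UTR.

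IGF2 had its reproducible peak in the 3′ UTR, in exon 4, the last exon. The peak ran from chr11:2131529-2132336 in replicate 1 and from chr11:2131528-2132336 in replicate 2 (hg38, minus strand), so that its borders differed by at most 1 bp. Fold enrichment was 9.73 and 10.4 and the pileup 21 and 43 reads, at −log10 q of 16.1 and 29.6. Both folds were at percentile 84.4 of their list, the share of peaks at or below them in percent. The summits lay 106 bp apart, 911 and 1017 nt after the last coding base, in a run of CA repeats. The 30 bases around each summit are shown because this is the peak on the mRNA that gave the protein family its name. They are written 5′ to 3′ on the strand of the gene, and capitals here and in all genomic windows mark GGAC or CATT or CATA or CATC or ACACA.
IGF2 replicate 1, chr11:2132065-2132094 (minus strand): ACACACAgcacacgcatgaACACAgcacac
IGF2 replicate 2, chr11:2131959-2131988 (minus strand): agcACACACAcgcACACACAtgcACACACA
GGAC is the core of a motif methylated at its adenosine, CATT, CATA and CATC are the DNA letters of the CAU motifs described for IGF2BP proteins, and ACACA stands for CA-rich elements. Within 50 nt on either side of the summit, ACACA occurred 12 times in replicate 1 and 16 times in replicate 2, counted with overlaps. Of all such windows around summits on genes, 11% and 8.71% held ACACA at least once. A further IGF2 peak in replicate 2 covered the start of the transcript, at chr11:2139281-2139586, with a fold of 9.32 and a pileup of 16. Both IGF2 regions also lie within longer annotated genes on the same strand, the second of them in the INS-IGF2 readthrough gene as well, and reads from these genes and from IGF2 cannot be told apart.

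H19 had an overlapping pair of peaks of low enrichment, 1363 bp wide in replicate 1 and 466 bp in replicate 2. Replicate 1 had a peak at chr11:1996120-1997482, over exons 1 to 3, with a fold of 5.33 and a pileup of 29. Replicate 2 had one at chr11:1996798-1997263, within exon 1, with a fold of 4.92 and a pileup of 21. These folds were at percentiles 20.3 and 12.1 of their lists, far below those of IGF2. Exon 1 holds the hairpin of the microRNA gene MIR675, at chr11:1996759-1996831, and the peak of replicate 1 covered all of it. The peak of replicate 2 reached only part of the hairpin but covered the mature 5p arm. The mature sequences, from RefSeq for GRCh38.p14 and identical to hg38 at these positions, are shown with the seed, bases 2 to 8, in capitals.
hsa-miR-675-5p, chr11:1996800-1996822 (minus strand): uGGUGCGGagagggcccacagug
hsa-miR-675-3p, chr11:1996768-1996787 (minus strand): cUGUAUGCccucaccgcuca
Neither summit was on the hairpin. In replicate 2 the summit window lay upstream of it and held GGAC in 2 places, as shown.
H19 replicate 2, chr11:1997009-1997109 (minus strand): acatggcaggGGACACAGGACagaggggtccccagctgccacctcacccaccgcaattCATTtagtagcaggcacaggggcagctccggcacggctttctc
The window of replicate 1, with its summit 134 bp away, held none of the searched motifs. A further H19 peak of replicate 1, in exon 4, had a fold of 3.59 and a pileup of 19, and no counterpart in replicate 2. The wider peak of replicate 1 also overlaps an unnamed gene on the opposite strand, whose reads cannot be told apart from those of H19.

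The 3 receptor genes together had 25 peaks in replicate 1 and 22 in replicate 2, of which 15 and 15 overlapped the other list. Their median fold was 6.92 and 7.99. IGF1R, the receptor kinase for IGF1 and IGF2, had 6 overlapping pairs. Its start, at chr15:98648370-98648698 in replicate 1, had folds of 10.3 and 11.2. Exon 2, which encodes part of the ligand-binding ectodomain, had folds of 9.29 and 8.21. Exon 19 had 6.92 and 7.85, and exon 20, which encodes part of the kinase domain, had 11 and 14.3. The pairs at the start, exon 2 and exon 19 were thus alike in height, whereas exon 11 had a fold of 13.5 with 28 reads in replicate 1 and of 7.08 with 9 reads in replicate 2. In exon 20 the summits were 91 bp apart, within the exon in replicate 1 and in the intron 72 nt before it in replicate 2. At exon 11 both summits were in the intron, 26 and 8 nt before the exon in replicates 1 and 2. At exon 19 both were as well, 65 and 54 nt before it. At exon 2 the summit of replicate 2 was in the intron, 25 nt before the exon. The long last exon, which holds the 3′ UTR, had a pair at chr15:98957852-98958157 with folds of only 3.71 and 5.17, although its pileups of 65 and 71 reads were the highest of any IGF1R pair. SYNM-AS1 lies across this part of the gene on the opposite strand, and the deposited peaks carry no strand, so the origin of these reads cannot be told apart. Peaks without a counterpart were at exons 3, 10 and 14 and in the last exon in replicate 1, with folds of 11.5, 6.90, 6.70 and 3.24, and in the last exon in replicate 2, with a fold of 3.80. The summit at exon 14 was in the intron, 12 nt before the exon. The peak at exon 3 also overlaps an unnamed gene on the opposite strand, whose reads cannot be told apart from those of IGF1R. The 30 bases at the summit of the 3′ UTR pair, shown for the CAU motif, were as follows in replicate 1.
IGF1R replicate 1, last exon, chr15:98957981-98958010 (plus strand): gggcCATCgttCATCcaaggctgttaccat

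INSR, the insulin receptor, which also binds IGF2, had 8 overlapping pairs, more than any other of these genes. Exon 3 had folds of 8.51 and 12.1, exon 4 had 7.26 and 11.2, and exon 10 had 7.17 and 11. Both exon 10 summits were in the intron, 31 and 58 nt before the exon in replicates 1 and 2. The exon 4 summit of replicate 2 was in the intron as well, 65 nt before the exon. The peak over exons 18 and 19, in the kinase domain, had 8.89 and 6.38. In the last exon the pair in the coding part had folds of 3.90 and 3.95, and the pair in the 3′ UTR had 2.78 and 5.47. Replicate 2 had the higher fold in 7 of the 8 INSR pairs. The widest gap was at exon 12, where replicate 1 had a fold of 6.91 from 13 reads and replicate 2 had 15.9 from 42 reads, a log2 difference of 1.20, with summits 1 bp apart. That fold of 15.9 was the highest on any of the 8 genes. Peaks without a counterpart were as strong as many shared ones. Exon 2 had a fold of 11.8 in replicate 1 alone, and the start of the gene a fold of 11.8 in replicate 2 alone. The others had folds of 4.12 to 6.91 in replicate 1 and 7.68 to 7.79 in replicate 2. A pair in an INSR intron, at chr19:7197792-7198094 and chr19:7198038-7198338, shared only 57 bp and had 8 and 10 reads at its summits. In replicate 2 the summit was 110 bp away, and its window held ACACA in 1 place and GGAC in 0. The window of replicate 1 is shown because it consists largely of CA repeats interleaved with GGAC, with ACACA in 17 places counted with overlaps.
INSR replicate 1, intron, chr19:7197958-7198058 (minus strand): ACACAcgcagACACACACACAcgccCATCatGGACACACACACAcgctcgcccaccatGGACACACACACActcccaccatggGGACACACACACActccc

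IGF1R and INSR are related genes with a matching order of exons, in which INSR has an additional alternatively spliced exon 11 of 36 nt. When exons were matched by order around it, 21 exons corresponded and 11 of them had the same length in both genes. Peaks in both lists touched 6 exons of IGF1R and 7 of INSR, wherever their summits lay. Whether these exons matched more or less often than their numbers imply was not tested. Of the 21 corresponding exons, 2 had peaks in both lists in both genes, namely the last exon, and exon 11 of IGF1R with exon 12 of INSR. The latter encode the site at which the precursor chains are cut into α and β subunits. Their summit windows in replicate 1, which cross from the intron into the exon, are shown for comparison.
IGF1R exon 11, chr15:98922072-98922172 (plus strand): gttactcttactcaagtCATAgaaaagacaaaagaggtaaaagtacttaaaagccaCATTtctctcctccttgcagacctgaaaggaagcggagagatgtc
INSR exon 12, chr19:7143040-7143140 (minus strand): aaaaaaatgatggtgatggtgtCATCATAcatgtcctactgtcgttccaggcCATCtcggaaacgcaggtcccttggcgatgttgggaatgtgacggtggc
Both windows hold CATA upstream of the exon, and the INSR window also holds CATC in 2 places, of which 1 is at the start of the exon. Exons 19 and 20 of IGF1R, with peaks in both lists, correspond to exons 20 and 21 of INSR, which had 0 peaks in either. Conversely, exon 4 of INSR had a peak in both lists and the corresponding exon of IGF1R, of the same 149 nt, had 0.

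IGF2R, the cation-independent mannose 6-phosphate receptor that clears IGF2, had a single overlapping pair on its 48 exons, in the 3′ UTR at chr6:160105433-160105742. By the ratio of the folds it was the most even pair, with folds of 8.59 and 8.50 and pileups of 29 and 26 reads. The summits were 117 bp apart, and the 30 bases at each are shown because the 2 replicates placed them on different sequence.
IGF2R replicate 1, chr6:160105620-160105649 (plus strand): ctggtCATTaatgtgtcccctgagttggag
IGF2R replicate 2, chr6:160105503-160105532 (plus strand): aaggaaaaaaaaacagccaccgtttcttcc
The other IGF2R peaks were at exon 12 and further along the 3′ UTR in replicate 1, with folds of 7.50 and 5.92, and at the start of the gene and exon 38 in replicate 2, with folds of 8.13 and 9.72. The summits at exons 12 and 38 were in the intron before the exon.

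IRS1 and IRS2, the docking proteins that link both receptor kinases to PI3K, had low folds, with a median of 3.90 over their 11 peaks in replicate 1 and 3.78 over their 9 peaks in replicate 2. On IRS1, 3 pairs lay in the coding sequence of the long exon 1. Their folds were 3.40 and 4.39, 2.65 and 2.61, and 2.56 and 3.78 in replicates 1 and 2. Their pileups were 48 to 61 reads in replicate 1 and 57 to 96 in replicate 2, where the median of all peaks was 22 reads in each list. The local background at these pairs was 17.3 to 18.1 reads in replicate 1 and 21.1 to 21.7 in replicate 2, beside medians of 2.05 and 1.79 over all peaks. All 10 IRS1 peaks were in the lowest 10% of their list by fold. The pair farthest downstream had summits 1 bp apart, and its window, shown for a run of CAG triplets, held none of the searched motifs.
IRS1 replicate 1, exon 1, chr2:226796057-226796157 (minus strand): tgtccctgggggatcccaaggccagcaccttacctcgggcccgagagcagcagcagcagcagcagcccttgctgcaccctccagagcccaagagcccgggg
On IRS2 the pileups were 22 to 32 reads in replicate 1 and 28 to 71 in replicate 2. The local background at its exon 1 peaks was 5.77 to 5.89 reads in replicate 1 and 16.8 to 16.9 in replicate 2. In this gene 1 pair was in the coding sequence of exon 1, with folds of 4.79 and 3.36, and 3 were in the 3′ UTR. The strongest of the latter, at chr13:109755508-109756186 in replicate 1, had folds of 5.24 and 7.67 and summits 1 bp apart, 373 and 374 nt after the last coding base. Its summit sequence in replicate 1 is shown as the most precisely repeated 3′ UTR position among the 8 genes, and it holds none of the searched motifs.
IRS2 replicate 1, 3′ UTR, chr13:109755920-109755949 (minus strand): agcagatataaccctcagcatgctaggaga
The remaining 2 pairs of IRS2 involved a single peak of replicate 2, with a fold of 5.14, that overlapped peaks of replicate 1 with folds of 3.97 and 3.72. The peaks without a counterpart were as low, with folds of 3.12 to 4.12 on IRS1 and 3.02 to 4.05 on IRS2. The exon 1 peak of IRS2 in replicate 1 without a counterpart also overlaps an unnamed gene on the opposite strand, whose reads cannot be told apart.

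IGFBP3, which binds IGFs in the circulation, had peaks in replicate 2 only. One, in the 3′ UTR at chr7:45912516-45913810, was wide, with a fold of 8.32 and a pileup of 33 reads. The other, at the start of the transcript, had a fold of 5.27 from 10 reads. The absence of a called peak in replicate 1 gives no level for that sample, because the files list called peaks alone.

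Ordered by the highest fold per gene, for the 7 genes with peaks in both lists, IGF1R (13.9 ± 0.554, SD, n = 2) and INSR (13.9 ± 2.89) led. They were followed by IGF2 (10.1 ± 0.465), IGF2R (9.16 ± 0.793), IRS2 (6.45 ± 1.72), H19 (5.13 ± 0.287) and IRS1 (4.26 ± 0.194). The highest fold of IGFBP3, 8.32 in replicate 2 alone, would fall between IGF2R and IRS2. On IGF1R, INSR, IGF2R and IRS1 the highest peaks of the 2 replicates lay on different exons, so their SD is not that of a single site. They were on exons 11 and 20 of IGF1R and on exons 2 and 12 of INSR in replicates 1 and 2. The order takes no account of the number of peaks per gene. The replicate values of IGF1R and INSR overlapped, as did those of IRS2 and H19, whereas the other neighbours in this order did not overlap. A fold of IRS1 and of INSR does not compare the number of reads, since the IRS1 peaks had more reads than most INSR peaks.

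**Figure D3:**
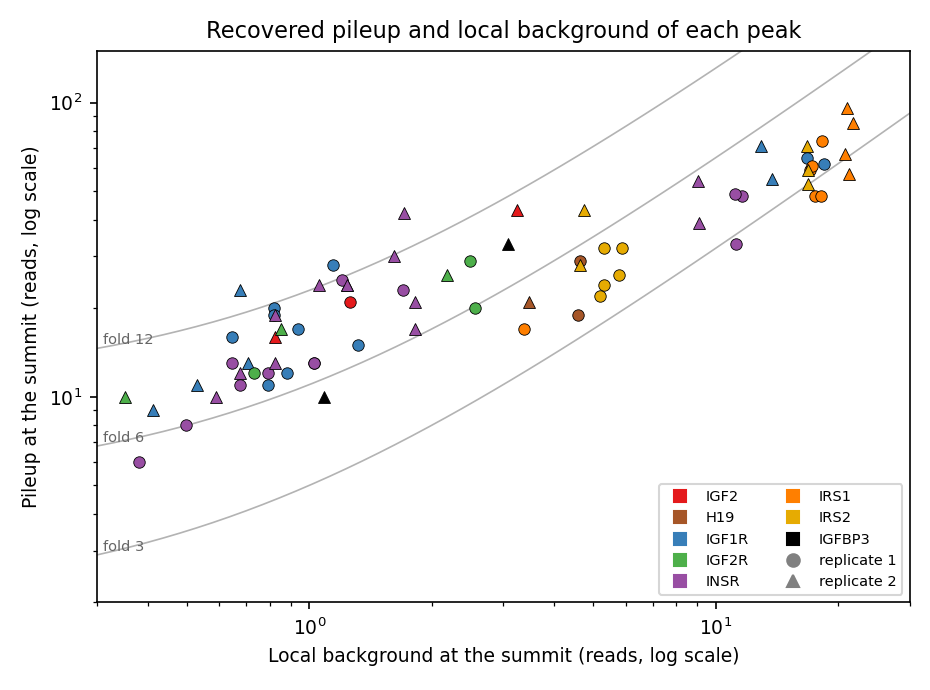
Pileup (y axis) against local background (x axis) at the summit of each of the 75 peaks, both in reads on log scales, coloured by gene, with circles for replicate 1 and triangles for replicate 2. Grey lines join equal fold. At the upper right, with high pileup and background, sit the peaks on exon 1 of IRS1 and on the last exons of IGF1R and INSR. Those on exon 1 of IRS2 in replicate 2 lie there too. Most other receptor peaks sit at the lower left.

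By median, fold was lower for peaks on long exons, but the ranges overlapped. Of the 39 peaks of replicate 1, 21 touched an exon of at least 1000 nt, and of the 36 of replicate 2, 19 did. These had a median fold of 3.97 (range 2.56 to 10.3) and 4.92 (2.61 to 11.2). Their median pileup was 32 and 53 reads and their median background 5.89 and 9.11 reads. The other 18 and 17 peaks had a median fold of 7.21 (3.59 to 13.5) and 8.13 (5.27 to 15.9). Their median pileup was 13 and 17 reads and their median background 0.850 and 0.823 reads. Long-exon peaks overlapped the other list in 66.7% and 68.4% of cases and the others in 55.6% and 58.8%. In total 15 of 39 (38.5%) and 9 of 36 (25.0%) peaks on the IGF axis were in the lowest 10% of their list by fold, and 9 and 7 of these were on IRS1 and IRS2. IRS1 and IRS2 gave 11 and 9 of the long-exon peaks in replicates 1 and 2, so gene and exon length were not separated. The same values over all peaks were not computed. The exon length of 1000 nt was chosen after the values were seen, and the part of exon length in these values was not tested.

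Replicate 2 had the higher fold in 17 of the 24 overlapping pairs (70.8%, Wilson interval 50.8 to 85.1), beside 57.4% of all 13071 pairs, a share inside that interval. Without INSR it was 10 of 16 pairs (62.5%). The median absolute log2 ratio of the folds was 0.42, and 0.37 without INSR, beside 0.27 over all pairs. Summits were a median of 33.5 bp apart, beside 40 bp over all. The median fold was 5.92 (range 2.56 to 13.5) in replicate 1, where that of all peaks was 6.89, and 7.68 (2.61 to 15.9) in replicate 2, where it was 7.13. With 2 samples no test was made of these differences. Of the 5000 peaks with the largest −log10 q in each list, 2 were among the 39 of replicate 1 (5.13%, beside 23.6% of all peaks) and 10 among the 36 of replicate 2 (27.8%, beside 24%).

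**Figure D4:**
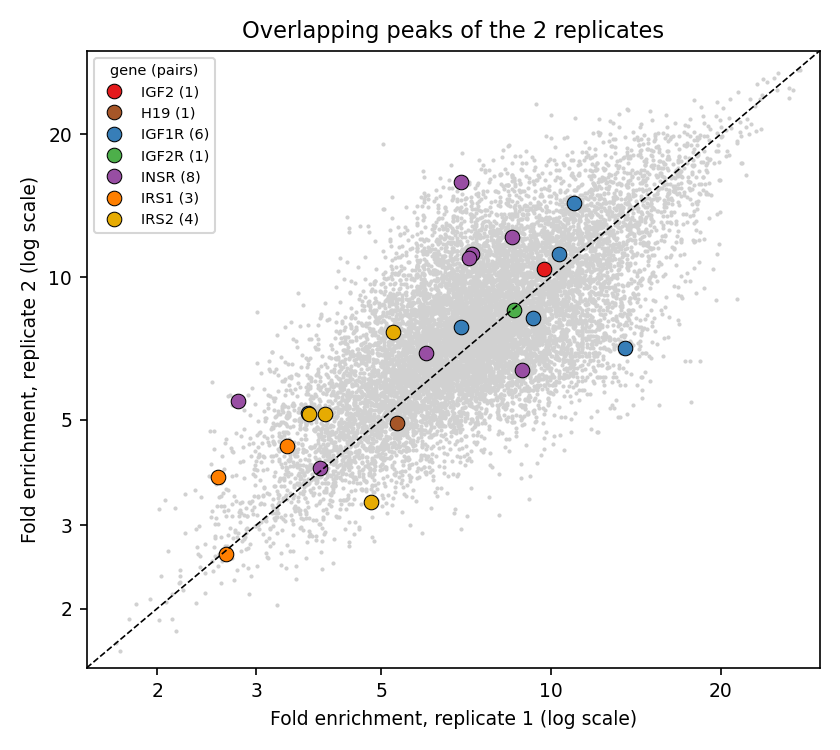
Fold enrichment in replicate 1 (x axis) against replicate 2 (y axis), both on log scales, for the 24 overlapping pairs of peaks on the IGF axis, coloured by gene, over all 13071 pairs in grey. The dashed line marks equal folds; 17 of the 24 pairs lie above it, and the IRS1 pairs sit at the low end.

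Peaks at transcript starts differed in number between the replicates. In replicate 2, 5 genes (IGF2, IGF1R, IGF2R, INSR and IGFBP3) had a peak over the first base of the transcript, with folds from 5.27 to 11.8. In replicate 1, IGF1R alone did, with a fold of 10.3. The share of all genes with a peak over the first base was not counted. By another measure, 5′ UTR summits made up 2.56% and 16.7% of the IGF axis peaks in replicates 1 and 2. Over all peaks on genes they made up 7.0% and 12.7%, inside the Wilson intervals of the IGF axis shares (0.454 to 13.2 and 7.87 to 31.9). The windows at the starts of the genes named above were rich in G and C, with 76.2% in replicate 1 and 71.3% to 82.2% in replicate 2. The median of all windows was 49.5% and 56.4%. The part of base composition in this difference was not tested.

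The searched motifs were about as frequent on the IGF axis as elsewhere, on the strand of the gene and within 50 nt on either side of the summit. GGAC was in 9 of 39 windows (23.1%) in replicate 1 and 9 of 36 (25.0%) in replicate 2, beside 29.1% and 32.0% of all windows on genes. CATC was in 21 windows (53.8%, Wilson interval 38.6 to 68.4) and 13 windows (36.1%, 22.5 to 52.4), beside 34% and 31%. CATT was in 33.3% and 22.2%, beside 33.0% and 26.0%, and CATA in 15.4% and 11.1%, beside 18.7% and 14%. ACACA was in 4 windows (10.3%) and 6 windows (16.7%), beside 11% and 8.71%. CATC in replicate 1 was the single case in which the share of all windows fell outside the interval of the IGF axis share, and it did not do so in replicate 2. Windows of overlapping peaks share sequence, and CATA or GGAC can overlap ACACA.

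Further along the pathway, 59 other genes of insulin and IGF signalling were counted, of which 36 (61.0%) had peaks in both lists and 34 had an overlapping pair. Adaptors, which carry the signal from the receptors, had peaks in both lists for 7 of 8 genes, with IRS4 at 0. The PI3K branch had 16 of 20 and the MAPK branch 7 of 10. Among the other ligands and binding proteins 2 of 11 did, IGFBP4 and STC2, while IGF1 and INS had 0 peaks. Phosphatases and inhibitors had 2 of 7, PTPN1 and PTPN11. IGF2BP2 and the mRNA of IGF2BP3 itself had peaks in both lists, and IGF2BP1 had 0. These counts stand beside 34.7% of all protein-coding genes and are not adjusted for RNA level, which was not measured here. Values are given for the genes at the top of this list, ranked by the lower percentile of their best pair, and do not stand for the rest of it. The highest was on GSK3B, a kinase that AKT inhibits, with folds of 15.9 and 16.2. MAP2K2, the kinase MEK2, had 11.8 and 15, and GRB2, an adaptor that recruits SOS proteins, had 10.7 and 14.6 at a summit outside its span. RPTOR, a subunit of mTOR complex 1, had 12.3 and 11.1. The exchange factors SOS2 and SOS1 had 10.2 and 11.5, and 9.82 and 10.6. The kinases BRAF and MTOR had 9.81 and 11.3, and 12.8 and 10.5.

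The genes most like INSR, with 12 peaks in each list and the closest highest folds, were ASAP1, MYH9 and MAGI1, out of 5 genes with these counts. The highest folds were 13.2 and 17.3 on ASAP1, 15.5 and 16.4 on MYH9, and 14.7 and 13.0 on MAGI1, beside 11.8 and 15.9 on INSR. Likeness was the sum of the absolute log2 differences of the 2 folds, 0.28 for ASAP1, 0.43 for MYH9 and 0.61 for MAGI1, over 2 samples.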

How the data were processed

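IGF2BP3 LACE-seq peak lists of OE-19 cells were analysed, 2 samples of a single group; the labels do not say whether they came from separate cultures. The authors called peaks per replicate. The submitters' processing notes name fastp, HISAT2, MACS2 and hg38, whereas the study's methods name Bowtie and Piranha; the deposited layout is that of MACS2. The authors deposited fold enrichment, a ratio over local background, and the p-value and q-value as −log10. The score column repeats the q-value and was not used. Peaks have no strand and were given that of the gene.

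For each peak the whole pileup was sought that gives the deposited fold, as pileup plus 1 over background plus 1, and the p-value under a Poisson distribution, to within 0.002 on the −log10 scale. It was found for all 21142 and 20799 peaks, with a smallest pileup of 4 reads in both. Read totals are unknown, and intervals (95%, Wilson) cover counting error only. Summits were classed as CDS, 3′ UTR, 5′ UTR, other exon or intron, in this order, over GENCODE 44 transcripts. Overlap needed 1 bp. Windows of 50 nt on either side of the summit, or 30 nt in UTRs, were read from hg38, and coordinates are 1-based. Python 3.11.15, numpy 2.4.6, pandas 2.3.3 and scipy 1.17.1 were used, and the pileup and overlap steps were tested on simulated data.

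The 8 genes and the lists were chosen with earlier results of these data known. All 8 genes are named, with the 10 genes of the wider list whose overlapping pair had the highest lower percentile and the 3 genes nearest to INSR. Some genes that this rule names are not reported here. The exons to compare and the printed windows were picked after the values were seen. No test between groups was possible, so shares stand beside those of all peaks. Alternatives were other rules for assigning peaks to genes, stricter peak sets, other overlap rules and each replicate alone.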

Additional observations from a re-analysis of the deposited data

How the results depend on the processing

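Of 52 values recomputed under alternatives that kept both replicates, 44 moved by less than the replicate SD or, for counts, by less than 1.5 times. This count overstates stability, because some alternatives had little room to move. Every summit on the IGF axis was in unique sequence, so keeping only such summits removed none of its peaks. Requiring the summit within the gene span left every value unchanged. The median fold percentile differed so widely between replicates that its SD covered every alternative. With the 5000 peaks of largest −log10 q per list, the peaks per replicate fell from 37.5 ± 2.12 (SD, n = 2) to 6, from 2 and 10, genes with a peak in both lists from 7 to 2, overlap with the other list from 62.7% to 0%, the 3′ UTR share from 25.2% to 20% (0% and 40% in the replicates), and wider pathway genes from 36 to 12. Without peaks that also overlap another gene, the 3′ UTR share was 20.2%. Overlap was 56.1% with 50% reciprocal overlap and 34.7% with summits within 50 bp. Each replicate alone cannot depart from the mean of 2 by more than their SD, so those values say nothing of stability: the median fold percentile was 29.4 in replicate 1 and 59.1 in replicate 2, with a mean of 44.3, and the coding share was 43.6% and 30.6%. Pileups at several intronic and start peaks were 6 to 16 reads, and with 2 samples and no control list the spread between replicates is known only roughly.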
